A study of Homo sapiens with 15 samples.

Results

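The data described here are the RNA-Seq counts of NCI-H295R cells that carried active NFATC4, set against cells that carried the empty plasmid. The comparison took 7 of the 15 libraries of the series, chosen by their labels. In 3 libraries, cells had been transfected with the plasmid pcNDA3.T7 delta-NFAT3, which codes for a truncated, constitutively active NFATC4, and they are called ΔNFATC4 here. In 4 libraries, cells had been transfected with the plasmid pcDNA3.T7 without insert, and they are called mock. The labels give both groups the genotype WT, and RNA was taken 3 days after transfection by electroporation. The other 8 libraries, labelled control (4 libraries) and NFATC4-KO (4 libraries), did not enter the tests and are used below only as a range of levels. By the paper's methods, the NFATC4-KO cells came from single-cell clones made with 2 guide RNAs, and the control cells had been transfected in parallel with empty plasmids. Whether the libraries of a group were grown and transfected separately is not stated in the sources used here. If they were not, the p values cover technical spread alone.

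NCI-H295R is a line from a human adrenocortical carcinoma that makes steroid hormones, aldosterone among them. NFATC4 is a transcription factor that rests in the cytoplasm in phosphorylated form. When calcium rises, the phosphatase calcineurin dephosphorylates it, and it moves to the nucleus and binds DNA at sites with the core GGAAA, often next to other factors such as AP-1. The truncated form lacks the N-terminal regulatory region, so that its activity no longer depends on calcineurin. The comparison asks which transcripts differ when NFATC4 is active without a calcium signal.

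NFATC4 itself, ENSG00000100968 on chr14:24365673-24379604 of GRCh38, was measured at 329, 357 and 340.1 CPM in ΔNFATC4 and 91.4, 92.5, 105 and 87.002 CPM in mock. The groups did not overlap, and the level was 3.64-fold that of mock (log2 fold change 1.86, SE 0.06, adjusted p = 4.52e-14). The reads of the plasmid's coding sequence count toward the gene, so the endogenous transcript cannot be told apart from the plasmid's. RCAN1, a calcineurin inhibitor and a textbook target of NFAT, stood at 47.7, 45.3 and 50.3 CPM in ΔNFATC4 and 32.9, 29.99, 27.3 and 27.6 CPM in mock. It rose 1.62-fold (log2 fold change 0.70, SE 0.08, adjusted p = 2.12e-06). Of 20 tested genes of the NFAT family and calcineurin, these 2 rose (10.0%, beside 7.69% of all genes tested) and 1 fell (5.0%, beside 6.1%). Both shares are near those of all genes, and NFATC4, the transfected gene, is 1 of the 2. The fallen gene was DYRK2, a kinase that phosphorylates NFAT, at 40.3, 38.2 and 41.2 CPM in ΔNFATC4 and 45.1, 53.1, 50.5 and 55.4 CPM in mock (log2 fold change −0.36, SE 0.07, adjusted p = 0.00244). NFATC1 had a log2 fold change of 0.10, NFATC2 of 0.24 and NFATC3 of −0.15, none of them called. The catalytic subunit PPP3CA was at 58.1, 58.4 and 61.3 CPM in ΔNFATC4 and 57.5, 72.6, 63.4 and 68.95 CPM in mock, and the groups overlapped.

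The quasi-likelihood test of edgeR was run on 14094 of the 21493 genes, those that passed its filter on low counts. At an adjusted p under 0.05, 1084 genes rose (7.69% of those tested) and 860 fell (6.1%), which is 13.8% in all. The 2 directions differed in level and in size. Genes that rose had a median of 6.66 CPM in mock cells, where CPM, the usual scale of counts in proportion to library size, is relative to the library's total after TMM scaling, and a median log2 fold change of 0.58. Genes that fell had a median of 47.3 CPM in mock cells and a median log2 fold change of −0.32, while the median of all genes tested was 28.2 CPM and their median log2 fold change −0.003. Past a 2-fold change, 307 genes rose (2.18% of those tested) and 21 fell (0.149%). In 255 of the 1084 risen genes the mock mean was under 1 CPM, and in 12 of the 860 fallen genes the ΔNFATC4 mean was. Of 1037 genes with a mean under 1 CPM over the 7 libraries, 191 (18.4%) rose and 5 fell. From 1 to 10 CPM, 390 of 2989 genes (13%) rose and 117 (3.91%) fell. From 10 to 100 CPM, 399 of 7732 (5.16%) rose and 520 (6.73%) fell. Above 100 CPM, 104 of 2336 (4.45%) rose and 218 (9.33%) fell, and 2 genes passed a 2-fold change in each direction. A gene near 0 counts in mock cells passed the filter on low counts through the ΔNFATC4 libraries, so the share of risen genes at low levels is in part set by the filter. Among genes with 50 or more counts in 3 libraries, 809 rose and 738 fell, 88 and 13 of them past 2-fold. The 3 ΔNFATC4 libraries alone can meet this filter too, so it does not remove that effect. MGP, for example, passed it with 84, 140 and 104 counts in ΔNFATC4 and 1, 2, 2 and 1 in mock.

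**Figure D1:**
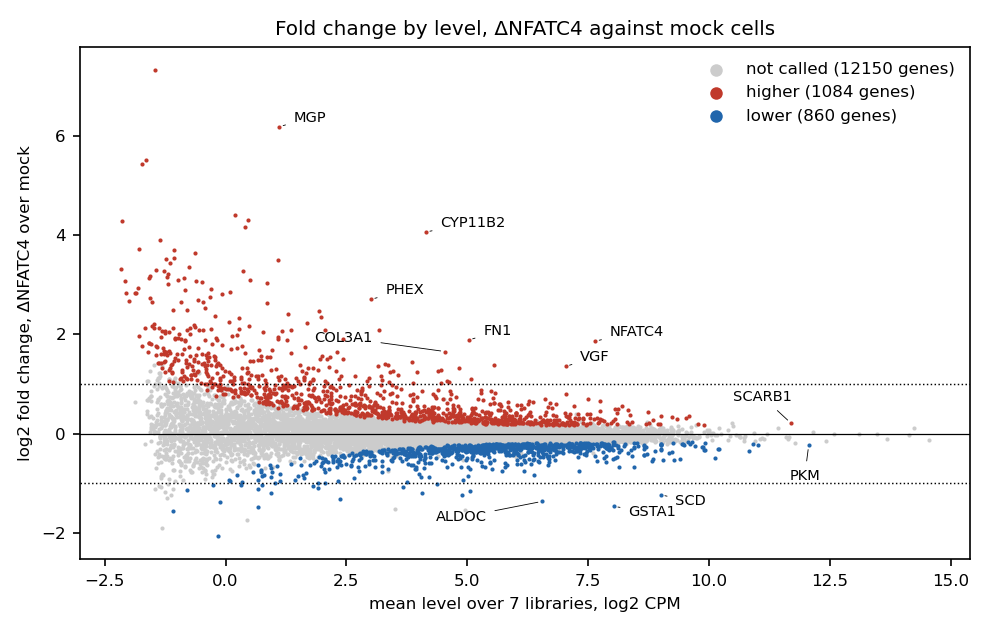
Log2 fold change of ΔNFATC4 over mock (vertical axis) against the mean level over the 7 libraries in log2 CPM (horizontal axis), 1 point per gene tested, with 1084 genes that rose in red, 860 that fell in blue and the rest in gray, and dotted lines at a 2-fold change. Points far above 0 lie mostly at the left, where levels are low, and the blue points form a shallow band at the right.

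Summed over the genes that rose, NFATC4 left out, the level was 47350, 49540 and 47350 CPM in the ΔNFATC4 libraries and 37670, 37520, 38580 and 37900 CPM in mock. Summed over the genes that fell, it was 79270, 78240 and 77830 CPM against 99220, 96240, 98320 and 96220 CPM. The genes that fell thus held a larger share of all counts than those that rose. These sums describe genes chosen by the test and are no test themselves. In the groups as labelled, 1041 of the risen and 805 of the fallen genes had no overlap between groups, beside 12.5% (ΔNFATC4 higher) and 11.7% (ΔNFATC4 lower) of all genes tested. The calls came from these same libraries, so this lack of overlap follows in large part from the call and is no test either. Without ΔNFATC4 replicate 2, 644 genes rose. Without ΔNFATC4 replicate 1, 2 or 3, 485, 458 and 493 genes fell. With the other 8 libraries in the fit, 326 rose and 204 fell, and the genes described below that lost their call there are named in their paragraphs.

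Depth ranged from 18.8 to 24.6 M counts in ΔNFATC4 and from 21.6 to 28.2 M counts in mock libraries. The first principal component, with 55.33% of the variance, separated the groups, and the second, with 14.4%, set mock replicate 1 apart, in which 13.1% of counts came from mitochondrial genes, against 11.1% to 11.8% in the other 6 libraries. All 12 markers of adrenocortical cells were above 1 CPM, with summed levels of 2250 to 2570 CPM in ΔNFATC4 and 2230 to 2470 CPM in mock cells. NR5A1, which defines steroid-producing cells, was at 362, 422 and 352 CPM in ΔNFATC4 and 384, 343, 380.01 and 408 CPM in mock. All 6 endothelial markers, 5 of 6 chromaffin and 5 of 6 immune markers were under 1 CPM as a mean over the 7 libraries. Of 8 fibroblast markers, 6 were under 1 CPM and 3 rose, and their summed level was 46.2 to 53.8 CPM against 21.0 to 26.2 CPM, most of it COL3A1. The smooth muscle list was at 18.5 to 20.7 against 11.8 to 13.8 CPM, nearly all of it ACTA2. The part of other cell types in the results was not tested. In bulk RNA, a change in all cells and a larger change in those cells that took up the plasmid cannot be told apart. Among genes described below, CA9, CAMK1, CYP17A1, TFPI2 and the transport protein gene STAR overlap another gene on the other strand and PFKFB4 one on its own strand, and whether strand was used in the counting is not given in the sources used here.

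The 15 genes with the largest rise at 5 CPM or more in ΔNFATC4 cells came from several functions, and NFATC4 was among them. The aldosterone synthase CYP11B2 stood first, at 38.1, 40.8 and 35.5 CPM in ΔNFATC4 and 2.78, 2.39, 2.51 and 1.57 CPM in mock (log2 fold change 4.06, SE 0.12, adjusted p = 4.92e-15). PHEX, an endopeptidase of phosphate balance on chrX:22032325-22494713, was second, at 14.6, 15.3 and 16.8 CPM in ΔNFATC4 and 3.3004, 2.43, 1.68 and 2.105 CPM in mock. Its rise was 6.52-fold (log2 fold change 2.70, SE 0.14, adjusted p = 7.12e-11), and the lowest ΔNFATC4 library was more than 4 times the highest mock library. DGKI, a diacylglycerol kinase, was measured at 7.74, 7.16 and 6.497 CPM in ΔNFATC4 and 1.13, 1.32, 1.49 and 1.25 CPM in mock (log2 fold change 2.46, SE 0.15, adjusted p = 5.54e-10). AKNA, an AT-hook protein, stood at 13.996, 18.5 and 15.98 CPM in ΔNFATC4 and 3.39, 4.3997, 3.16 and 4.07 CPM in mock (log2 fold change 2.10, SE 0.13, adjusted p = 4.21e-10). The muscle kinase ALPK3 was at 7.58, 7.42 and 7.07 CPM in ΔNFATC4 and 1.39, 1.58, 2.23 and 1.71 CPM in mock (log2 fold change 2.09, SE 0.15, adjusted p = 5.73e-09). In each of these genes the mock level was a few CPM and the groups were far apart. LYVE1, a hyaluronan receptor, was at 7.26, 9.18 and 7.91 CPM in ΔNFATC4 and 2.95, 2.95, 2.19 and 2.28 CPM in mock, which is 3.13-fold higher. JCHAIN, the joining chain of polymeric immunoglobulins, was 3.36-fold higher, at 5.61, 4.72 and 5.29 CPM in ΔNFATC4 and 1.39, 1.28, 1.54 and 1.93 CPM in mock. AQP1, a water channel whose locus also holds a readthrough transcript on the same strand, was 2.97-fold higher. AVIL, an actin-binding protein that overlaps TSFM on the other strand, was 3.75-fold higher. These genes were chosen for groups that do not overlap, which alone fixes the exact two-sided permutation p at 0.0571. That is the smallest p that 3 against 4 libraries allow, so it adds no support here. DGKI and JCHAIN lost their call with the other 8 libraries in the fit.

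**Figure D2:**
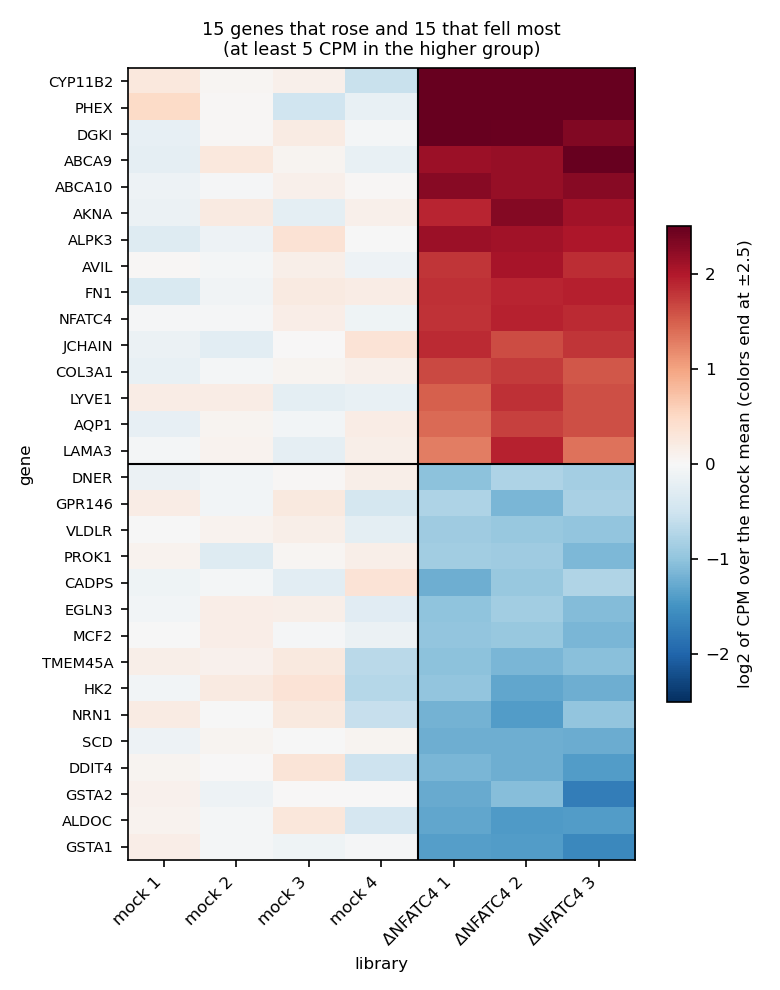
Log2 of CPM over the mock mean in each of the 7 libraries (columns) for the 15 genes that rose and the 15 that fell most among called genes without overlap and with at least 5 CPM in the higher group (rows), with colors that end at 2.5 in either direction. The 3 ΔNFATC4 columns are alike in every row, while mock replicate 4 lies nearer to them in HK2, DDIT4, NRN1 and TMEM45A.

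Genes of the extracellular matrix and its receptors were among those that rose. The integrins, the cell's receptors for matrix, rose in 8 of 18 tested members (44.4%, beside 7.69% of all genes) and fell in 0 by edgeR, DESeq2, limma or at an unadjusted p under 0.05, with a median log2 fold change of 0.32 against −0.003 for all genes. Without ΔNFATC4 replicate 3, 5 of them rose. As means over the list, ΔNFATC4 libraries lay at 0.32 to 0.38 from the mock mean on the log2 scale. Control libraries lay at 0.12 to 0.37, NFATC4-KO libraries at 0.10 to 0.34 and mock libraries at −0.06 to 0.04. Mock was thus the group below all others, and the cause was not tested. ITGB5, which pairs with the alpha V chain to bind vitronectin, was at 33.6, 34.3 and 33.3 CPM in ΔNFATC4 and 17.5, 14.5, 16.5 and 16.6 CPM in mock (log2 fold change 1.05, SE 0.08, adjusted p = 8.49e-09). ITGA5, the alpha chain of the fibronectin receptor, was at 84.2, 78.5 and 76.8 CPM in ΔNFATC4 and 55.2, 51.7, 57.1 and 50.7 CPM in mock (log2 fold change 0.57, SE 0.07, adjusted p = 4.21e-06). ITGA2, of the collagen receptor, was at 29.9, 31.2 and 35.7 CPM in ΔNFATC4 and 17.1, 24.3, 19.5 and 18.2 CPM in mock (log2 fold change 0.71, SE 0.10, adjusted p = 8.57e-05). The ΔNFATC4 and mock libraries did not overlap in any of these. ITGA1, the most abundant of the risen integrins by CPM, was at 699, 738 and 723 CPM in ΔNFATC4 and 542, 638, 577 and 582 CPM in mock, and it shares its locus and strand with PELO, so its reads may be split. Fibronectin itself, FN1 on chr2:215360440-215436073, was at 53.6, 56.2 and 58.2 CPM in ΔNFATC4 and 11.6, 14.3, 17.6 and 17.1 CPM in mock. It rose 3.69-fold (log2 fold change 1.88, SE 0.10, adjusted p = 7.75e-10), and each ΔNFATC4 library was above 3 times the highest mock library. ITGB5, ITGA5 and FN1 lost their call with the other 8 libraries in the fit.

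Of 27 collagens tested, 9 rose (33.3%, beside 7.69% of all genes) and 5 fell (18.5%, beside 6.1%). Their median log2 fold change was 0.19, so the family did not move one way. COL3A1, a fibrillar collagen of soft tissue, was at 37.96, 40.7 and 35.4 CPM in ΔNFATC4 and 10.7, 11.7, 12.7 and 13.2 CPM in mock and rose 3.15-fold (log2 fold change 1.66, SE 0.09, adjusted p = 3.34e-11). COL1A1, another fibrillar collagen, was at 9.16, 10.03 and 8.91 CPM in ΔNFATC4 and 9.21, 8.93, 12.2 and 9.74 CPM in mock, and the groups overlapped. COL4A2, of the basement membrane, had one of the 10 largest rises in CPM, at 889, 905 and 837 CPM in ΔNFATC4 and 628, 669, 755 and 693 CPM in mock (log2 fold change 0.35, SE 0.06, adjusted p = 0.000505). COL4A4, of the same family, fell by 0.71 on the log2 scale, from 14.9, 20.97, 19.7 and 16.7 CPM in mock to 10.4, 11.8 and 10.95 CPM. Laminins, the other main basement membrane proteins, rose in 3 of 10 tested members (30.0%, beside 7.69% of all genes) and fell in 1 (10.0%, beside 6.1%). LAMA3 was at 5.89, 9.31 and 6.23 CPM in ΔNFATC4 and 2.35, 2.61, 2.09 and 2.71 CPM in mock (log2 fold change 1.54, SE 0.17, adjusted p = 1.97e-06) and its partner LAMB3 at 6.61, 7.76 and 7.54 CPM in ΔNFATC4 and 2.87, 3.89, 4.23 and 2.71 CPM in mock (log2 fold change 1.10, SE 0.15, adjusted p = 2.94e-05), whereas LAMA2 fell, from 270.1, 329, 317 and 301 CPM to 212, 227 and 212 CPM (log2 fold change −0.49, SE 0.07, adjusted p = 2.81e-05). COL4A4, LAMA3, LAMB3 and LAMA2 lost their call with the other 8 libraries in the fit.

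Among 34 tested matrix glycoproteins and proteoglycans, 12 rose (35.3%, beside 7.69% of all genes) and 5 fell (14.7%, beside 6.1%), with a median log2 fold change of 0.11. The largest rises were in genes that mock cells hardly expressed. MGP, an inhibitor of calcification, had 84, 140 and 104 counts in the ΔNFATC4 libraries and 1, 2, 2 and 1 in mock. By summed counts the ratio was 78.0, with an exact 95% interval of 35.5 to 214 for counting error only (log2 fold change 6.18, SE 0.36, adjusted p = 2.27e-10). ASPN, a small leucine-rich proteoglycan, had 16, 12 and 20 counts against 1 count in all 4 mock libraries, a ratio of 68.5 with an interval of 11.7 to 2760. IMPG2, a proteoglycan known from the retina, had 200 counts against 14, a ratio of 20.4 with an interval of 11.9 to 38.0. BGN, or biglycan, had 91 counts against 10, a ratio of 13 with an interval of 6.75 to 28.0. SPARC, by far the most abundant of the named members by CPM, which is not scaled for length, went the other way, at 1808, 1759 and 1766 CPM in ΔNFATC4 and 2103, 1959, 2027 and 2124 CPM in mock (log2 fold change −0.21, SE 0.06, adjusted p = 0.0144), and its call was lost without any 1 of the 3 ΔNFATC4 libraries. MGP, ASPN, IMPG2 and BGN passed the filter on low counts through the ΔNFATC4 libraries alone. The share of risen members is thus in part set by the filter. Among genes with 50 or more counts in 3 libraries, 7 members rose, and MGP and IMPG2 met that filter through the ΔNFATC4 libraries alone. BGN and SPARC lost their call with the other 8 libraries in the fit.

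Matrix proteases and their inhibitors rose in 8 of 27 tested members (29.6%, beside 7.69% of all genes) and fell in 2 (7.41%, beside 6.1%). MMP9, a gelatinase, was at 2.501, 1.97 and 2.04 CPM in ΔNFATC4 and 0.347, 0.726, 0.419 and 0.499 CPM in mock (log2 fold change 2.11, SE 0.25, adjusted p = 6.63e-06), so that MMP9 stayed under 3 CPM in every library. TFPI2, an inhibitor of serine proteases in matrix, was at 33.7, 35.4 and 35.3 CPM in ΔNFATC4 and 19.1, 16.7, 14.98 and 16.8 CPM in mock (log2 fold change 1.04, SE 0.08, adjusted p = 2.15e-08). SERPINE2, which inhibits thrombin and plasminogen activators, was at 8.71, 8.58 and 10.6 CPM in ΔNFATC4 and 4.78, 5.17, 5.07 and 5.64 CPM in mock (log2 fold change 0.84, SE 0.12, adjusted p = 4.01e-05). SERPINA5, the protein C inhibitor, which shares its locus with SERPINA4, was at 682, 685 and 675 CPM in ΔNFATC4 and 545, 518, 550.1 and 538 CPM in mock and had one of the largest rises in CPM. Cadherins and protocadherins, which join cell to cell, had 4 of 19 tested members that fell (21.1%, beside 6.1% of all genes). In that list 0 rose by edgeR, DESeq2, limma or at an unadjusted p under 0.05. CDH24 was at 27.8, 25.9 and 28.7 CPM in ΔNFATC4 and 38.95, 38.2, 43.1 and 36.7 CPM in mock (log2 fold change −0.52, SE 0.08, adjusted p = 7.72e-05) and PCDH18 at 13.4, 15.5 and 14.1 CPM in ΔNFATC4 and 18.5, 23.6, 21.8 and 21.8 CPM in mock (log2 fold change −0.58, SE 0.09, adjusted p = 0.000205). MMP9, TFPI2, SERPINA5 and CDH24 lost their call with the other 8 libraries in the fit.

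The promoters of 4 genes are printed to show what lies just before the start of genes that moved. They are the 250 bases before the RefSeq start, on the gene's strand, from the RefSeq promoter table of GRCh38.p14. FN1 and VGF, both risen, are shown for the full cyclic AMP response element TGACGTCA, ABCA9, of the risen ABCA genes, for the NFAT core GGAAA, and LDHA, of the fallen glycolysis genes, for the hypoxia response core ACGTG or GCGTG. The capitals mark these letters, searched on both strands. Each gene is shown for a motif that it holds, so these matches are no test. FN1 and VGF lie on the minus strand at chr2:215436069-215436318 and chr7:101165570-101165819, ABCA9 on the minus strand at chr17:69060928-69061177, and LDHA on the plus strand at chr11:18394313-18394562.
FN1: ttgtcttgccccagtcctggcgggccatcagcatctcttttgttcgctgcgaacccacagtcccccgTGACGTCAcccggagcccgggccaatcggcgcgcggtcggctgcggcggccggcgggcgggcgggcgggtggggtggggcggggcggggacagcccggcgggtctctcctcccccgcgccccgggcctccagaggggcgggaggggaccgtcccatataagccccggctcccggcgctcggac
VGF: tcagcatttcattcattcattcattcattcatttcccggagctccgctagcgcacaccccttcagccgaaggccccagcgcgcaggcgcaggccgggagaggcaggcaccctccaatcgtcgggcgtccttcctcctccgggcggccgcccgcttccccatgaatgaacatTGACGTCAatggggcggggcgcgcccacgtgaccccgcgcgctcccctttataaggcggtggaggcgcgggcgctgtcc
ABCA9: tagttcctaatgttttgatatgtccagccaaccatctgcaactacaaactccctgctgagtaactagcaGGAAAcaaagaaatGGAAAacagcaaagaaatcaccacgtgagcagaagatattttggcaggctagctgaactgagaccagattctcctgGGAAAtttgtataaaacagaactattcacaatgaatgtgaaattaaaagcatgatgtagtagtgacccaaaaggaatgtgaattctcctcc
LDHA: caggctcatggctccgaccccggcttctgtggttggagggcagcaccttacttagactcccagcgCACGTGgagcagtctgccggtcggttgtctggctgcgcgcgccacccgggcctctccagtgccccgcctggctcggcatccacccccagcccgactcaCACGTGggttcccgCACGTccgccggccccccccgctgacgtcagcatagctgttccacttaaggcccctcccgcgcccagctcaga
Counted from the RefSeq start, the match begins at −183 in FN1 and at −79 in VGF. ABCA9 has 3 matches, at −181, −167 and −91, and LDHA has 5, of which 2 pairs overlap, at −185, −184, −87, −86 and −73. Of 27305 promoters of the same length, 1.77% hold TGACGTCA, 56.0% hold GGAAA and 43.1% hold ACGTG or GCGTG. Capitals mark 1 motif in each sequence, and the others were searched too. The promoter of LDHA also holds 1 match to TGACGTCA, and ACGTG or GCGTG has 2 matches in VGF and 2 in ABCA9, while GGAAA has 1 in VGF, so these motifs do not separate the risen from the fallen genes shown. Short letters such as GGAAA are thus found in most promoters, and a match describes the sequence, not a bound site. Too few of the genes tested had a promoter in the table (78.0% of all tested, 75.2% of the risen) for the shares of gene sets to be compared.

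Genes of growth factor signaling changed in both directions. The MAPK feedback list holds the inhibitors that the RAS-ERK pathway switches on against itself. Of its 27 tested members, 7 rose (25.9%, beside 7.69% of all genes) and 2 fell (7.41%, near the 6.1% of all genes). SPRY4, a Sprouty inhibitor, was at 6.94, 7.93 and 6.97 CPM in ΔNFATC4 and 2.65, 3.63, 2.88 and 2.93 CPM in mock (log2 fold change 1.27, SE 0.14, adjusted p = 1.59e-06). DUSP4, a phosphatase of ERK, was at 7.74, 7.89 and 9.06 CPM in ΔNFATC4 and 3.39, 4.57, 4.14 and 4.39 CPM in mock (log2 fold change 0.99, SE 0.13, adjusted p = 1.45e-05). DUSP5, another nuclear ERK phosphatase, was at 42.6, 43.8 and 42.8 CPM in ΔNFATC4 and 31.7, 28.9, 29.9 and 29.9 CPM in mock (log2 fold change 0.52, SE 0.07, adjusted p = 1.83e-05), and the groups did not overlap in any of the 3. SPRY1, in contrast, was at 0.161, 0.172 and 0.105 CPM against 0.695, 0.641, 0.977 and 0.0713 CPM, and was not called. Of 19 receptor tyrosine kinases tested, 6 rose (31.6%, beside 7.69% of all genes) and 2 fell (10.5%, beside 6.1%). EGFR was at 47.999, 49.5 and 61.2 CPM in ΔNFATC4 and 23.5, 33.4, 31.9 and 25.7 CPM in mock (log2 fold change 0.89, SE 0.12, adjusted p = 0.00018), and LTK, at 1.17, 1.42 and 1.21 CPM in ΔNFATC4 and 0.608, 0.342, 0.512 and 0.285 CPM in mock (log2 fold change 1.55, SE 0.29, adjusted p = 0.000937), had few counts. FGFR1, the most abundant by CPM of the named receptors, fell, from 271, 269, 277 and 277 to 181, 189.6 and 181 CPM (log2 fold change −0.57, SE 0.05, adjusted p = 3.5e-07). EGFR and FGFR1 lost their call with the other 8 libraries in the fit.

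Of 43 tested genes of TGF-beta, BMP and activin signaling, 7 rose (16.3%, beside 7.69% of all genes) and 8 fell (18.6%, beside 6.1%), with a median log2 fold change of 0.04. ID1, which blocks bHLH factors, was at 17.3, 15.99 and 12.4 CPM in ΔNFATC4 and 6.56, 4.78, 5.26 and 6.56 CPM in mock (log2 fold change 1.40, SE 0.13, adjusted p = 2.23e-07). ID3, of the same family, was at 44.6, 47.6 and 37.1 CPM in ΔNFATC4 and 20.5, 13.8, 16.1 and 18.5 CPM in mock (log2 fold change 1.32, SE 0.11, adjusted p = 6.74e-07). SMAD6, an inhibitory SMAD, was at 36.4, 35.6 and 33.5 CPM in ΔNFATC4 and 19.6, 19.1, 22.1 and 22.9 CPM in mock (log2 fold change 0.75, SE 0.08, adjusted p = 1.52e-06), and SMAD9, a SMAD of BMP receptors, at 26.5, 28.8 and 24.3 CPM in ΔNFATC4 and 15.3, 17.2, 18.1 and 13.8 CPM in mock (log2 fold change 0.73, SE 0.09, adjusted p = 1.68e-05). Among immediate early genes, 4 of 22 rose (18.2%, beside 7.69% of all genes) and 3 fell (13.6%, beside 6.1%). FOSL1, an AP-1 subunit, was at 1.13, 1.37 and 1.52 CPM in ΔNFATC4 and 0.782, 0.384, 0.419 and 0.464 CPM in mock (log2 fold change 1.37, SE 0.28, adjusted p = 0.00211), while JUND, another AP-1 subunit and far more abundant by CPM, fell, at 60.9, 63.3 and 63.8 CPM in ΔNFATC4 and 94.4, 83.1, 85.8 and 93.4 CPM in mock (log2 fold change −0.51, SE 0.07, adjusted p = 1.64e-05). ID1, ID3, SMAD9 and FOSL1 lost their call with the other 8 libraries in the fit.

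Potassium channels set the membrane voltage of adrenal cells. Of 47 tested subunits, 9 rose (19.1%, beside 7.69% of all genes) and 2 fell (4.26%, beside 6.1%), with a median log2 fold change of 0.09. The risen subunits with the largest changes were low. KCNQ1, a slow voltage-gated channel, was at 0.726, 0.472 and 0.786 CPM in ΔNFATC4 and 0.0869, 0.0854, 0.1396 and 0.0713 CPM in mock (log2 fold change 2.74, SE 0.45, adjusted p = 0.000251). KCND2, of a fast transient current, was at 2.82, 3.602 and 3.67 CPM in ΔNFATC4 and 1.17, 1.75, 1.68 and 2.18 CPM in mock (log2 fold change 0.97, SE 0.20, adjusted p = 0.00174). KCNK3, the background channel TASK-1, was at 1025, 1093 and 1037 CPM in ΔNFATC4 and 935, 996, 1022 and 1059.7 CPM in mock, with overlapping groups and a log2 fold change of 0.07 (95% interval −0.04 to 0.18). KCND2 lost its call with the other 8 libraries in the fit.

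The genes of calcium stores and calcium binding rose in 7 of 36 tested members (19.4%, beside 7.69% of all genes) and fell in 3 (8.33%, beside 6.1%). Pumps that clear calcium from the cytosol were among the risen ones. ATP2A3, a pump into the endoplasmic reticulum, was at 28.7, 30.8 and 25.4 CPM in ΔNFATC4 and 15.3, 14.1, 17.1 and 15.4 CPM in mock (log2 fold change 0.87, SE 0.09, adjusted p = 5.84e-07). ATP2B2, a pump of the plasma membrane, was at 25.3, 26.8 and 27.6 CPM in ΔNFATC4 and 12.8, 15.8, 16.6 and 17.1 CPM in mock (log2 fold change 0.77, SE 0.09, adjusted p = 6.09e-06). ATP2A2, the common pump of the endoplasmic reticulum, was at 293, 289.5 and 304 CPM in ΔNFATC4 and 288, 318, 313 and 322 CPM in mock and was not called. RYR1, a release channel known from muscle, was at 0.484, 1.07 and 0.838 CPM in ΔNFATC4 and 0.174, 0.214, 0.0931 and 0.2497 CPM in mock (log2 fold change 2.05, SE 0.41, adjusted p = 0.00159), and CAMK1, a calmodulin kinase, fell, at 4.56, 3.69 and 3.41 CPM in ΔNFATC4 and 6.04, 5.77, 6.002 and 5.99 CPM in mock (log2 fold change −0.60, SE 0.13, adjusted p = 0.00348). Of 27 voltage-gated calcium and sodium channel subunits, 3 rose and 3 fell (11.1% each, beside 7.69% and 6.1% of all genes). CACNA1C, the L-type channel, was at 50.4, 60.7 and 52.7 CPM in ΔNFATC4 and 31.8, 37.2, 42.4 and 33.6 CPM in mock (log2 fold change 0.59, SE 0.09, adjusted p = 0.000128). Scaled with all 15 libraries, its means of 54.9 CPM in ΔNFATC4 and 36.5 CPM in mock were both below the other 8 libraries, at 69.6 to 97.6 CPM. CACNA1I, a T-type channel, was at 4.07, 5.103 and 4.66 CPM in ΔNFATC4 and 2.13, 2.69, 2.65 and 1.85 CPM in mock (log2 fold change 0.99, SE 0.16, adjusted p = 0.00024), while CACNA1G, the T-type channel with the higher CPM, fell, from 27.6, 30.9, 31.97 and 29.1 to 22.3, 24.2 and 23.5 CPM (log2 fold change −0.36, SE 0.08, adjusted p = 0.00314). ATP2B2, RYR1, CAMK1, CACNA1I and CACNA1G lost their call with the other 8 libraries in the fit.

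Of 35 tested ABC transporters, which move lipids and drugs across membranes, 6 rose (17.1%, beside 7.69% of all genes) and 1 fell (2.86%, beside 6.1%). A stretch of chromosome 17 holds 5 genes of the ABCA subfamily side by side, all on the minus strand, and 3 of them rose. ABCA9, at chr17:68974488-69060949, was at 6.29, 6.43 and 9.06 CPM in ΔNFATC4 and 1.22, 1.71, 1.49 and 1.25 CPM in mock (log2 fold change 2.35, SE 0.17, adjusted p = 8.52e-09). ABCA6 was at 2.38, 1.89 and 3.62 CPM in ΔNFATC4 and 0.174, 0.256, 0.419 and 0.214 CPM in mock (log2 fold change 3.28, SE 0.32, adjusted p = 3.63e-07). ABCA10 was at 5.93, 5.57 and 5.92 CPM in ΔNFATC4 and 1.13, 1.196, 1.35 and 1.25 CPM in mock (log2 fold change 2.23, SE 0.15, adjusted p = 2.88e-09), and it overlaps ABCA5 on the same strand, so reads may be split between them. These 3 lie next to one another, and the outer genes of the group were not called. ABCA8 was at 29.2, 30.6 and 27.2 CPM in ΔNFATC4 and 28.01, 32.7, 34.3 and 31.5 CPM in mock, with a log2 fold change of −0.12 (95% interval −0.28 to 0.03). ABCA5 was at 53.2, 53.6 and 61.5 CPM in ΔNFATC4 and 46.6, 54.2, 46.8 and 41.5 CPM in mock, with an adjusted p of 0.0502 that passed 0.05 under other settings. Elsewhere, ABCG2, a drug efflux pump, was at 2.18, 1.72 and 2.25 CPM in ΔNFATC4 and 0.434, 0.598, 0.651 and 0.392 CPM in mock (log2 fold change 1.99, SE 0.25, adjusted p = 1.17e-05).

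Genes of secreted peptides and signals held some of the sharpest rises. VGF, a granule protein and peptide precursor on chr7:101162509-101165569, was at 199.98, 202 and 200.1 CPM in ΔNFATC4 and 86.98, 78.9, 77.8 and 70.5 CPM in mock (log2 fold change 1.36, SE 0.07, adjusted p = 1.71e-11), with the 3 ΔNFATC4 libraries within 3 CPM of each other. SCG2, a secretogranin, was at 2.34, 2.27 and 2.99 CPM in ΔNFATC4 and 0.434, 0.384, 0.698 and 0.678 CPM in mock (log2 fold change 2.18, SE 0.24, adjusted p = 2.71e-06). In all, 5 of 24 tested genes of secretory granules and peptide hormones rose (20.8%, beside 7.69% of all genes) and 4 fell (16.7%, beside 6.1%). CADPS, which primes granules for release, was the member that fell most, at 2.26, 2.74 and 3.14 CPM in ΔNFATC4 and 4.91, 5.13, 4.42 and 6.67 CPM in mock (log2 fold change −0.98, SE 0.17, adjusted p = 0.000387). Of 15 cytokines and chemokines tested, 5 rose (33.3%, beside 7.69% of all genes) and 1 fell (6.67%, beside 6.1%). The share of risen members is in part set by the filter on low counts, which CXCL14 passed through the ΔNFATC4 libraries alone. CXCL14, a chemokine, had 65, 64 and 63 counts against 4, 3, 2 and 6 in mock, a ratio of 18.3 with an exact 95% interval of 10.8 to 33.3 (log2 fold change 4.15, SE 0.29, adjusted p = 2.88e-09). TNFSF13B, or BAFF, was at 3.99, 3.99 and 4.03 CPM in ΔNFATC4 and 1.13, 1.07, 0.838 and 0.785 CPM in mock (log2 fold change 2.07, SE 0.18, adjusted p = 1.14e-07). IGFBP4, an IGF-binding protein, had 55, 67 and 47 counts against 3, 1, 3 and 4, a ratio of 21.9 with an interval of 11.9 to 44.8. IGFBP2, the binding protein that mock cells expressed well, fell, from 167, 146, 161 and 153 to 125, 126 and 119 CPM (log2 fold change −0.35, SE 0.06, adjusted p = 0.000534). VGF, CADPS and IGFBP2 lost their call with the other 8 libraries in the fit.

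Of 18 tested genes of steroid hormone synthesis, 5 rose (27.8%, beside 7.69% of all genes) and 3 fell (16.7%, beside 6.1%), with a median log2 fold change of 0.11. Beside CYP11B2, HSD3B2, which turns pregnenolone into progesterone, was at 88.9, 107 and 91.4 CPM in ΔNFATC4 and 73.04, 63.2, 57.5 and 57.9 CPM in mock (log2 fold change 0.61, SE 0.08, adjusted p = 4.48e-05). CYP11B1, the 11-beta-hydroxylase of cortisol synthesis, is a neighbor of CYP11B2 with a closely similar sequence, so that reads may be split between them, and was at 3.71, 5.403 and 2.88 CPM in ΔNFATC4 and 2.08, 2.22, 2.14 and 1.39 CPM in mock (log2 fold change 1.06, SE 0.21, adjusted p = 0.00151). CYP17A1, which diverts precursors to cortisol and androgens, fell, at 186, 208 and 189 CPM in ΔNFATC4 and 292, 249, 276 and 248 CPM in mock (log2 fold change −0.45, SE 0.07, adjusted p = 7.72e-05). The first steps of the pathway were not called. STAR, which carries cholesterol into mitochondria, was at 819, 894 and 791 CPM in ΔNFATC4 and 807, 737, 739 and 768 CPM in mock (log2 fold change 0.13), and CYP11A1, which cleaves its side chain, at 481, 509 and 444 CPM in ΔNFATC4 and 516, 466, 500.2 and 488 CPM in mock (log2 fold change −0.04). CYP17A1 and CYP11B1 lost their call with the other 8 libraries in the fit.

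The hormone receptors of the adrenal cortex moved apart. MC2R, the receptor for ACTH, was at 14.3, 16.9 and 14.4 CPM in ΔNFATC4 and 8.12, 7.304, 6.75 and 8.597 CPM in mock (log2 fold change 0.97, SE 0.10, adjusted p = 1.77e-06). AGTR1, the receptor for angiotensin II, fell, at 75.3, 68.7 and 75.97 CPM in ΔNFATC4 and 102, 97.3, 93.4 and 104 CPM in mock (log2 fold change −0.43, SE 0.06, adjusted p = 8.65e-05). In neither gene did the groups overlap. NR4A2, an orphan nuclear receptor known to act on CYP11B2, was at 6.66, 6.39 and 5.76 CPM in ΔNFATC4 and 2.996, 3.503, 3.16 and 3.28 CPM in mock (log2 fold change 0.96, SE 0.13, adjusted p = 2.79e-05), and NR4A1 at 294, 345 and 312 CPM in ΔNFATC4 and 219.9, 220.2, 229 and 232 CPM in mock (log2 fold change 0.49, SE 0.06, adjusted p = 8.66e-06). Of 18 adrenal transcription factors and receptors tested, 3 rose (16.7%, beside 7.69% of all genes) and 2 fell (11.1%, beside 6.1%). NR4A1 lost its call with the other 8 libraries in the fit.

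The cholesterol synthesis list had the most fallen members of the 51 lists. Of 23 tested genes, 18 fell (78.3%, beside 6.1% of all genes) and 0 rose by edgeR, DESeq2 or limma (1 at an unadjusted p under 0.05), with a median log2 fold change of −0.38. The fallen members spanned the pathway from its early to its last steps, with log2 fold changes from −0.83 to −0.20. INSIG1, a sterol sensor that is itself a target of SREBP, was at 57.8, 56.9 and 58.9 CPM in ΔNFATC4 and 97.9, 108, 96.6 and 109 CPM in mock (log2 fold change −0.83, SE 0.07, adjusted p = 2.41e-08). FDFT1, squalene synthase, was at 79.9, 73.4 and 78.5 CPM in ΔNFATC4 and 126, 109, 109.9 and 134 CPM in mock (log2 fold change −0.63, SE 0.07, adjusted p = 5.09e-06), LSS, lanosterol synthase, at 91.9, 87.005 and 88.8 CPM in ΔNFATC4 and 126, 125, 132 and 135 CPM in mock (log2 fold change −0.54, SE 0.06, adjusted p = 2.56e-06), and MSMO1, a methylsterol oxidase, at 20.4, 19.9 and 19.6 CPM in ΔNFATC4 and 28.7, 30.1, 27.8 and 34.4 CPM in mock (log2 fold change −0.60, SE 0.08, adjusted p = 3.56e-05). In these 4 genes every ΔNFATC4 library was below every mock library. As means over the list, the 3 ΔNFATC4 libraries lay 0.34, 0.33 and 0.32 below the mock mean on the log2 scale, and the 4 mock libraries between −0.05 and 0.08. INSIG1 and MSMO1 lost their call with the other 8 libraries in the fit, and 4 members kept one.

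Uptake of cholesterol did not follow as a whole. Of 19 tested genes of its uptake, transport and storage, 2 rose (10.5%, beside 7.69% of all genes) and 3 fell (15.8%, beside 6.1%). SCARB1, the HDL receptor through which adrenal cells take up cholesterol esters, had the largest rise in CPM of all called genes, at 3577, 3825 and 3375 CPM in ΔNFATC4 and 3192, 2842, 3189.6 and 3134 CPM in mock. The rise was 1.16-fold (log2 fold change 0.22, SE 0.06, adjusted p = 0.022), and the call was lost without ΔNFATC4 replicate 1 or 2 and with the other 8 libraries in the fit. VLDLR, a lipoprotein receptor, fell, at 20.5, 19.6 and 18.97 CPM in ΔNFATC4 and 37.3, 39.9, 41.8 and 31.96 CPM in mock (log2 fold change −0.93, SE 0.09, adjusted p = 3.39e-07).

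Of 18 genes of fatty acid synthesis tested, 6 fell (33.3%, beside 6.1% of all genes) and 0 rose by edgeR, DESeq2 or limma (1 at an unadjusted p under 0.05). SCD, the main stearoyl-CoA desaturase on chr10:100347233-100364826, was at 291, 291 and 287 CPM in ΔNFATC4 and 624, 709.7, 677 and 711 CPM in mock and fell to 42.6% of mock (log2 fold change −1.23, SE 0.06, adjusted p = 1.71e-11). FADS2, at 546, 565 and 529 CPM in ΔNFATC4 and 739, 768, 799.5 and 803 CPM in mock (log2 fold change −0.51, SE 0.06, adjusted p = 2.37e-06), and FADS1, at 124, 135 and 125 CPM in ΔNFATC4 and 168, 181, 179 and 181 CPM in mock (log2 fold change −0.47, SE 0.06, adjusted p = 1.17e-05), overlap each other on opposite strands, and FADS2 also shares its strand with FEN1. SCD5, another desaturase, was at 51.5, 50.4 and 52.1 CPM in ΔNFATC4 and 66.3, 71.2, 68.03 and 71.3 CPM in mock (log2 fold change −0.43, SE 0.06, adjusted p = 7.34e-05). These 4 genes code for desaturases, which insert double bonds into fatty acids, while ELOVL5, also fallen, codes for an elongase and was at 139, 144 and 141 CPM in ΔNFATC4 and 169, 178, 159.8 and 173 CPM in mock (log2 fold change −0.27, SE 0.06, adjusted p = 0.00335). SCD, FADS2 and ELOVL5 lost their call with the other 8 libraries in the fit.

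Of 22 glycolysis genes tested, 12 fell (54.5%, beside 6.1% of all genes) and 1 rose (4.55%, beside 7.69%), with a median log2 fold change of −0.32. PKM, pyruvate kinase, had the largest fall in CPM of all called genes, at 3916, 3846 and 3875 CPM in ΔNFATC4 and 4524, 4559, 5044 and 4152 CPM in mock (log2 fold change −0.24, SE 0.06, adjusted p = 0.0159), and its call was lost without any 1 ΔNFATC4 library or mock replicate 3. TPI1, triosephosphate isomerase, which overlaps SPSB2 on the other strand, was at 1624, 1535 and 1522 CPM in ΔNFATC4 and 2127, 1953, 2138 and 1773 CPM in mock (log2 fold change −0.36, SE 0.07, adjusted p = 0.000791). LDHA, which turns pyruvate into lactate, was at 364, 339.8 and 369.8 CPM in ΔNFATC4 and 567, 537, 555 and 445 CPM in mock (log2 fold change −0.55, SE 0.07, adjusted p = 2.09e-05), and SLC2A1, the glucose transporter GLUT1, at 168, 167 and 152 CPM in ΔNFATC4 and 244, 233, 258 and 210.5 CPM in mock (log2 fold change −0.54, SE 0.07, adjusted p = 1.21e-05). ALDOC, an aldolase, fell most of the called members, at 51.7, 47.8 and 47.99 CPM in ΔNFATC4 and 135, 123, 154 and 94.5 CPM in mock, or 38.9% of mock (log2 fold change −1.36, SE 0.14, adjusted p = 0.000138). HK2, a hexokinase, was at 22.2, 17.7 and 18.8 CPM in ΔNFATC4 and 41.7, 50.8, 55.3 and 26.8 CPM in mock (log2 fold change −1.15, SE 0.25, adjusted p = 0.0259), and its call was lost without any 1 ΔNFATC4 library or without mock replicate 1 or 2. PFKFB4, a regulator of the pathway, was at 15.1, 14.02 and 15.6 CPM in ΔNFATC4 and 46.2, 42.6, 62.9 and 21.4 CPM in mock and had an adjusted p of 0.0619. Mock replicate 4 was the lowest of its group in each of ALDOC, HK2, PFKFB4, LDHA and SLC2A1, and the SD between mock libraries was as large as 25 CPM in ALDOC. HK2 and SLC2A1 lost their call with the other 8 libraries in the fit.

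The hypoxia response list, genes that the factor HIF switches on, behaved alike, with a median log2 fold change of −0.43. Of its 22 tested members, 13 fell (59.1%, beside 6.1% of all genes) and 1 rose (4.55%, beside 7.69%). BNIP3, a mitophagy receptor, was at 118, 110.3 and 113 CPM in ΔNFATC4 and 204, 206, 214 and 143 CPM in mock (log2 fold change −0.75, SE 0.12, adjusted p = 0.00185). EGLN3, a prolyl hydroxylase that marks HIF for degradation, was at 8.51, 9.35 and 8.12 CPM in ΔNFATC4 and 16.3, 19.2, 18.9 and 14.02 CPM in mock (log2 fold change −0.98, SE 0.11, adjusted p = 4.6e-06), and DDIT4, an inhibitor of mTORC1, at 17.8, 16.98 and 14.9 CPM in ΔNFATC4 and 41.5, 39.7, 48.995 and 27.4 CPM in mock (log2 fold change −1.24, SE 0.17, adjusted p = 0.00103). CA9, a carbonic anhydrase, was at 0.807, 0.386 and 0.472 CPM in ΔNFATC4 and 2.17, 1.28, 3.91 and 0.499 CPM in mock and VEGFA at 152, 155 and 148 CPM in ΔNFATC4 and 165, 166, 172 and 145 CPM in mock, neither called. The risen member was NDUFA4L2, a mitochondrial protein, which overlaps SHMT2 on the other strand and was at 1.01, 1.37 and 1.31 CPM in ΔNFATC4 and 0.0869, 0.0427, 0.1396 and 0.178 CPM in mock (log2 fold change 3.36, SE 0.38, adjusted p = 3.85e-06). As means over the list, the ΔNFATC4 libraries lay at −0.32, −0.41 and −0.37 from the mock mean on the log2 scale. Mock replicates 1, 2 and 3 lay at 0.06, 0.10 and 0.17, but mock replicate 4 at −0.32, within the ΔNFATC4 range. The list's separation thus rests on 3 of the 4 mock libraries, and leaving out 1 library at a time gave 9 to 17 fallen members. DDIT4 lost its call with the other 8 libraries in the fit.

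GSTA1 had the largest fall among called genes of at least 5 CPM in the higher group whose groups did not overlap. This glutathione transferase of steroid-producing tissue was at 138, 136 and 118 CPM in ΔNFATC4 and 405, 349, 334 and 352 CPM in mock, or 36.3% of mock (log2 fold change −1.46, SE 0.07, adjusted p = 3.14e-11). GSTA2, a near-identical paralog beside it on chromosome 6, was at 2.904, 3.34 and 2.096 CPM in ΔNFATC4 and 7.47, 6.41, 6.98 and 7.06 CPM in mock (log2 fold change −1.31, SE 0.15, adjusted p = 3.21e-06), and reads may be split between them. Of 30 tested NRF2 targets and glutathione genes, 8 fell (26.7%, beside 6.1% of all genes) and 3 rose (10.0%, beside 7.69%), with a median of −0.02. Metallothioneins, which bind zinc and copper, fell in 4 of 5 tested members, with MT1X at 26.8, 33.4 and 27.9 CPM in ΔNFATC4 and 48.2, 39.2, 41.97 and 39.2 CPM in mock (log2 fold change −0.52, SE 0.09, adjusted p = 0.000401). Other genes among the 15 with the largest falls were MCF2, a guanine nucleotide exchange factor, at 13.5, 13.8 and 12.1 CPM in ΔNFATC4 and 26.4, 29.7, 26.2 and 23.97 CPM in mock (log2 fold change −1.01, SE 0.09, adjusted p = 1.13e-07), and PROK1, a secreted factor of endocrine vessels, at 3.47, 3.43 and 2.93 CPM in ΔNFATC4 and 6.77, 5.08, 6.61 and 7.03 CPM in mock (log2 fold change −0.95, SE 0.15, adjusted p = 0.000107). DNER, a Notch ligand, was at 11.3, 13.5 and 12.9 CPM in ΔNFATC4 and 20.97, 21.96, 23.7 and 25.6 CPM in mock (log2 fold change −0.88, SE 0.09, adjusted p = 1.52e-06), and GPR146, which overlaps C7orf50 on the other strand, at 4.598, 3.602 and 4.51 CPM in ΔNFATC4 and 8.95, 7.52, 9.31 and 5.85 CPM in mock (log2 fold change −0.89, SE 0.16, adjusted p = 0.000534). NRN1, or neuritin, was at 9.76, 8.36 and 11.1 CPM in ΔNFATC4 and 25.5, 21.9, 26.1 and 14.9 CPM in mock (log2 fold change −1.18, SE 0.19, adjusted p = 0.00243), and TMEM45A, a membrane protein, at 8.03, 7.38 and 7.96 CPM in ΔNFATC4 and 18.2, 17.6, 19.4 and 10.3 CPM in mock (log2 fold change −1.06, SE 0.20, adjusted p = 0.00521).

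Cytosolic ribosomal protein genes showed a small shift in nearly all members. Of 84 tested, 81 had a log2 fold change below 0, with a median of −0.15 and a range of −0.32 to 0.13, and 16 fell (19.0%, beside 6.1% of all genes). RPLP1, of the ribosomal stalk, was at 1069, 1047 and 1009.98 CPM in ΔNFATC4 and 1435, 1174, 1303 and 1279.6 CPM in mock (log2 fold change −0.32, SE 0.06, adjusted p = 0.00168). The count depended on the libraries, with 6, 2 and 1 fallen without ΔNFATC4 replicates 1, 2 and 3, 37 without mock replicate 2 and 10 without mock replicate 3. Mock replicate 1, which also had the highest mitochondrial share, lay at 0.16 from the mock mean on the log2 scale, and the other 3 mock libraries between −0.08 and −0.03, against −0.17 to −0.11 in ΔNFATC4. The part of that library's quality in the shift was not tested. Nuclear respiratory chain subunits, with 2 of 82 called and a median of −0.06, and the 37 proteasome subunits, with log2 fold changes from −0.11 to 0.19, had few calls. Of the proteasome, edgeR and DESeq2 called 0 and limma 2, and 1 had an unadjusted p under 0.05.

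The 8 other libraries give a second scale for these levels, without a test. Of the 1084 risen genes, 390 (36.0%) were higher in every ΔNFATC4 library than in all 8, beside 11.5% of all genes tested, and of the 307 that passed 2-fold, 193 (62.9%) were. Of the 860 fallen genes, 194 (22.6%) were lower in every ΔNFATC4 library than in all 8, beside 12.1% of all genes. In 270 of the fallen genes (31.4%), every mock library was higher than all 8, beside 9.84% of all genes, and in 285 of the risen genes (26.3%) every mock library was lower than all 8, beside 10.7% of all genes. Risen and fallen genes were chosen by the difference between these same mock and ΔNFATC4 libraries. That choice alone raises these shares above those of all genes, so the shares describe levels and test nothing. Mock libraries lay outside the range of the other 8 in genes of both directions. Of 18 fallen cholesterol synthesis genes, 12 had every mock library above the 8 others and 1 had every ΔNFATC4 library below them. The counts were 8 and 1 of 12 for glycolysis, 6 and 2 of 13 for hypoxia, and 11 and 0 of 16 for ribosomal proteins. The ΔNFATC4 mean lay within the range of the 8 others in 17 of the 18 cholesterol synthesis genes, 10 of the 12 glycolysis genes, 8 of the 13 hypoxia genes and 8 of the 16 ribosomal protein genes, beside 63.6% of all genes tested. Among risen members, all 4 mock libraries were below the 8 others in 5 of 7 TGF-beta, BMP and activin genes, in 4 of 6 ABC transporters and in 4 of 9 collagens, while every ΔNFATC4 library was above them in 0, 2 and 4. The cause was not tested.

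**Figure D3:**
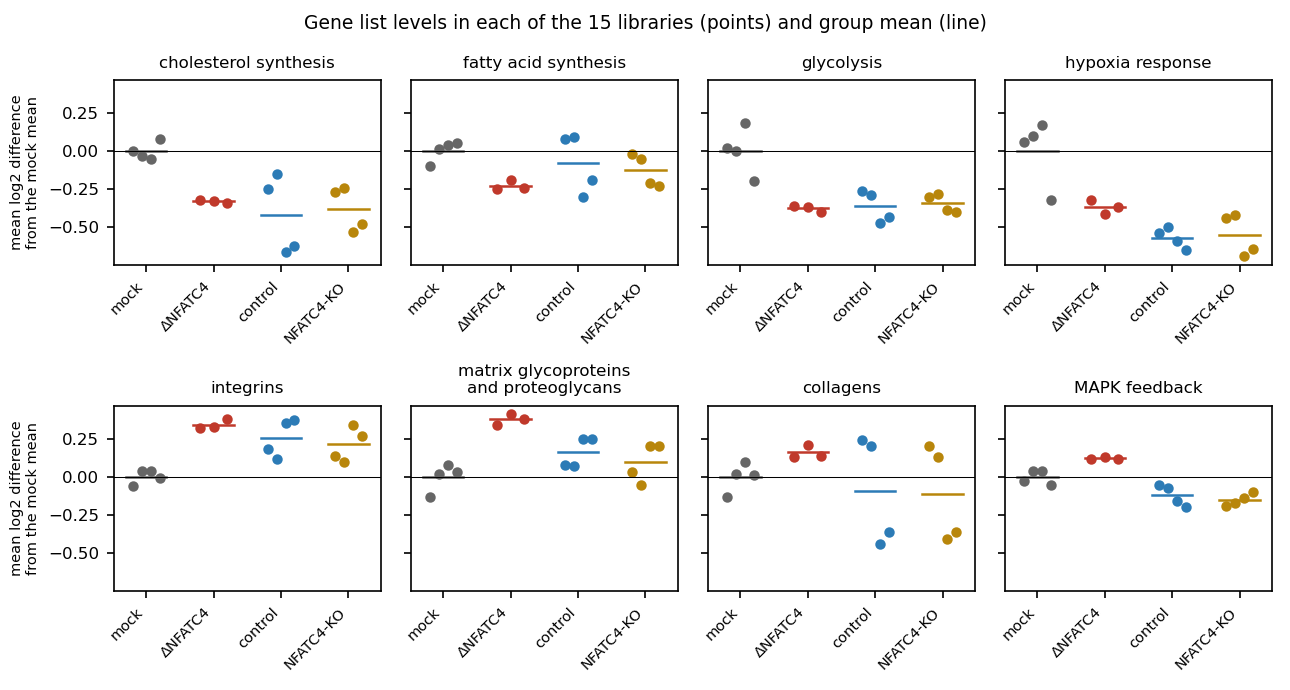
Mean log2 difference from the mock mean over all tested members of 8 gene lists (vertical axis), 1 point per library in each of the 4 groups and a line at the group mean. For cholesterol synthesis and glycolysis the group means of control, NFATC4-KO and ΔNFATC4 lie below that of mock, as they do for hypoxia, where mock replicate 4 lies with ΔNFATC4, and for MAPK feedback ΔNFATC4 stands above all other groups. For integrins every mock library lies below all libraries of the other groups.

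In other genes every ΔNFATC4 library lay outside the range of the other 8. COL3A1 reached 7.5 to 13.7 CPM in the other 8 libraries, below all 3 ΔNFATC4 libraries, PHEX 0.905 to 2.8 CPM, AKNA 5.17 to 6.99 CPM and HSD3B2 21.7 to 40.6 CPM. Of the 7 risen MAPK feedback genes, 6 were above all 8 others in every ΔNFATC4 library. VLDLR, at 35.5 to 49.8 CPM in the 8 others, and GSTA1, at 157 to 246 CPM, were lower in every ΔNFATC4 library. In some of these genes mock cells also differed from the 8 others, with a mock mean of 63.3 CPM in HSD3B2 and 362 CPM in GSTA1, above them, and of 3.78 CPM in AKNA, below them. By contrast, the 8 others spanned 9.18 to 117 CPM in FN1, 15.5 to 63.5 CPM in ITGB5, 45.9 to 294 CPM in VGF and 160.0 to 590.0 CPM in SCD. For these 4 genes the ΔNFATC4 libraries lay within that range, so their levels as such are also found without ΔNFATC4. The 8 others were not an even set. As means over the collagen list, control replicates 1 and 2 lay at 0.24 and 0.20 from the mock mean on the log2 scale. Control replicates 3 and 4 lay at −0.44 and −0.36. NFATC4-KO replicates 1 and 2 lay at 0.20 and 0.13, and replicates 3 and 5 at −0.41 and −0.36. Ribosomal protein genes showed no such gap, at −0.30 to −0.21 in control and −0.39 to −0.25 in NFATC4-KO libraries. The cause was not tested.

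**Figure D4:**
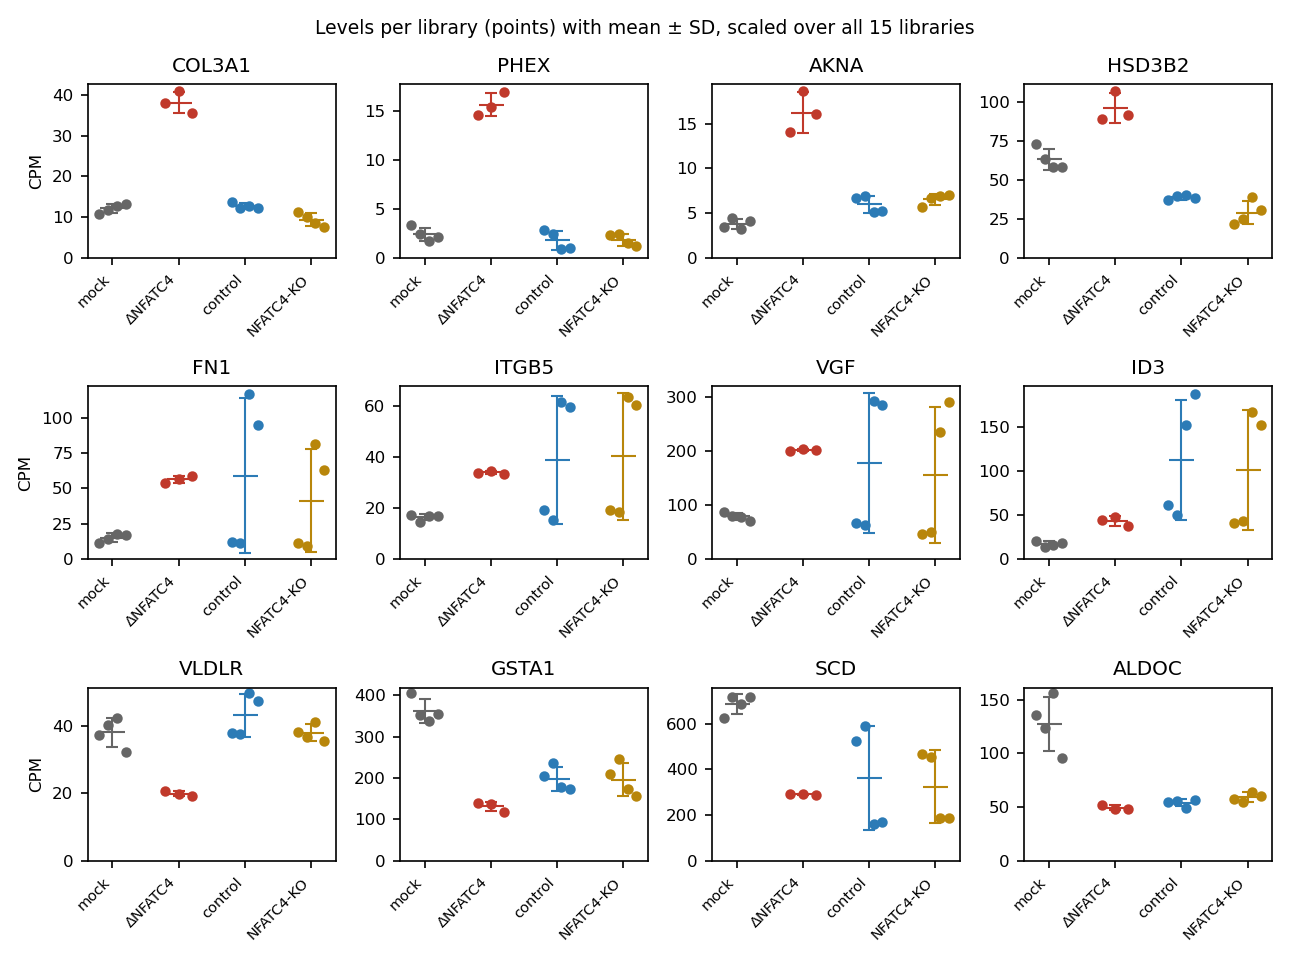
CPM of 12 genes (1 panel each, axis from 0) in all 15 libraries, scaled together, as points with the mean and SD of each group. COL3A1, PHEX, AKNA and HSD3B2 are higher and VLDLR and GSTA1 lower in ΔNFATC4 than in all other libraries, while in FN1, ITGB5, VGF, ID3 and SCD the control and NFATC4-KO libraries spread widely.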

How the data were processed

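RNA-Seq counts of 3 ΔNFATC4 and 4 mock libraries of NCI-H295R cells were used. The authors made stranded mRNA libraries, trimmed the reads with fastp, mapped them to GRCh38.p13 by STAR and assigned them to genes with featureCounts, by the paper's methods and the submitters' processing notes. The deposited values are raw counts for 21493 genes, of which 21400 matched a symbol. The settings for strand and multi-mapping are not given in the sources used here.

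From these, TMM factors, CPM and tests were computed with R 4.3.3 and edgeR 4.0.16 (robust quasi-likelihood fit of the 7 libraries, filterByExpr, Benjamini-Hochberg adjustment over 14094 genes). DESeq2 1.42.0 and limma 3.58.1 were alternatives, as were other filters and scaling, a fit of all 15 libraries, a replicate block and the omission of single libraries. Standard errors (SE) were obtained as the ratio of log2 fold change to √F. Single genes were tested by exact permutation of log2 CPM with 0.5 added. Counts were also simulated for the 14094 genes, of which 13823 passed the filter. In 200 genes with a mock mean of at least 1 CPM, a 2-fold or 4-fold change was set. Of these, 98% of 2-fold and 100% of 4-fold changes were recovered, with 5.71% of 210 calls false. Smaller changes and changes in genes under 1 CPM in mock were not simulated, so their recovery is not known.

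The members and the 51 gene lists were chosen with earlier results of these data known. Named were NFATC4, the 15 genes that rose and the 15 that fell most without overlap at 5 CPM or more, the 10 with the largest rise and the 10 with the largest fall in CPM, up to 5 called members of each list by size of change, and members whose lack of a call is described. For a gene with 0 counts the upper limit was set at 3 counts (0.107 to 0.157 CPM, depending on the library), which covers counting error only. Positions are from GENCODE on GRCh38, promoters from RefSeq. No 2 libraries agreed within sampling noise. Values of some genes are not reported here.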

Additional observations from a re-analysis of the deposited data

Results flagged for a closer look

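In 8 of 140 values tested within the 4 mock libraries, 1 library lay apart from the other 3 by Dixon's criterion, which chance passes in about 1 of 20 groups. Mock replicate 1 had 20.1% of its counts in the 50 highest genes and EPRS1 at 2428 CPM. Mock replicate 2 had SCARB1 at 2842 CPM, CAMK1 at 5.77 CPM and IGFBP4 at 0.0427 CPM. Mock replicate 4 had BNIP3 at 143 CPM, CYP11B1 at 1.39 CPM and ASPN at 0.0357 CPM, the last being 1 count. EPRS1, a tRNA synthetase, was among the 10 genes with the largest fall in CPM.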

How the results depend on the processing

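No called gene changed its direction under any of the 15 alternatives. With all 15 libraries in the fit, which takes in the spread of the other 8, 326 genes rose and 204 fell, of which 323 and 202 were called with the 7 libraries, and 166 rose and 11 fell past 2-fold. Of 257 genes taken in by the naming rule or the text, 146 lost their call there. Fallen members were 4 for cholesterol synthesis, 2 for fatty acid synthesis, 5 for hypoxia and 1 for ribosomal proteins, and risen members 3 for collagens, 5 for matrix glycoproteins, 3 for integrins, 4 for MAPK feedback and 4 for potassium channels. With limma-voom, 1331 genes fell, 32 of them past 2-fold, and 25 ribosomal protein genes fell. With at least 50 counts in 3 libraries, a filter that the ΔNFATC4 libraries alone can meet, 88 genes rose and 13 fell past 2-fold, and 7 matrix glycoproteins rose. DESeq2 gave 977 risen and 852 fallen genes.

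Leaving out 1 library at a time gave 644 to 1341 risen and 458 to 1219 fallen genes, and 273 to 327 and 14 to 30 past 2-fold. Fallen members ranged from 16 to 18 for cholesterol synthesis, 5 to 9 for fatty acid synthesis, 10 to 13 for glycolysis, 9 to 17 for hypoxia and 1 to 37 for ribosomal proteins. Risen members ranged from 8 to 10 for collagens, 9 to 12 for matrix glycoproteins, 5 to 8 for integrins, 5 to 7 for MAPK feedback and 6 to 11 for potassium channels. The cause was not tested.

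Whether libraries that share a number were grown or transfected together is not stated in the sources used here, and the values below cannot settle it. Between ΔNFATC4 and mock libraries of the same number, the correlations of deviations from the group means were 0.117, −0.111 and 0.0339 for numbers 1, 2 and 3. With the replicate block, which uses 6 libraries, 1053 genes rose and 927 fell, 311 and 30 of them past 2-fold, and 25 ribosomal protein genes fell. The shares of promoters with a motif in gene sets were not compared, since under 80% of the genes had a promoter. Changes of low genes rest on few counts.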

Other observations

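Of 36 DNA replication genes tested, 2 rose (5.56%, beside 7.69% of all genes) and 0 fell by edgeR, DESeq2 or limma, with 1 lower at an unadjusted p under 0.05, and the median log2 fold change was 0.04. Of 30 mitosis genes, 1 rose (3.33%), HMMR, a spindle protein, at 72.9, 69.8 and 68.4 CPM in ΔNFATC4 and 53.8, 55.02, 50.8 and 43.4 CPM in mock (log2 fold change 0.47, SE 0.08, adjusted p = 0.000192). MKI67, a proliferation marker, was at 457, 509 and 501 CPM in ΔNFATC4 and 379, 499, 514 and 467 CPM in mock, with overlapping groups. In the list of cycle inhibitors and cyclins, 6 of 18 tested members fell (33.3%, beside 6.1% of all genes). In that list 0 rose by edgeR, DESeq2, limma or at an unadjusted p under 0.05. CDKN1A, or p21, was at 99.8, 93.7 and 103 CPM in ΔNFATC4 and 129, 119, 125 and 127 CPM in mock (log2 fold change −0.34, SE 0.06, adjusted p = 0.000554), and CDKN1B, or p27, at 76.1, 75.6 and 75.8 CPM in ΔNFATC4 and 90.5, 97.3, 94.1 and 83.2 CPM in mock (log2 fold change −0.27, SE 0.07, adjusted p = 0.00801). MYC, which is neither an inhibitor of the cycle nor a cyclin, was at 30.4, 31.4 and 29.5 CPM in ΔNFATC4 and 46.5, 41.7, 42.9 and 50.6 CPM in mock (log2 fold change −0.58, SE 0.08, adjusted p = 2.22e-05). The lowest log2 fold change in the list was also −0.58, so the 6 fallen members may include MYC. CDKN1A and CDKN1B lost their call with the other 8 libraries in the fit.

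Of 41 WNT ligands, antagonists and targets tested, 4 rose and 4 fell (9.76% each), which is near the share of all genes. FRZB, a secreted WNT antagonist, was at 1.37, 0.858 and 0.786 CPM in ΔNFATC4 and 0.1303, 0.0427, 0.0931 and 0.0713 CPM in mock (log2 fold change 3.53, SE 0.44, adjusted p = 9.42e-06), and ROR2, a WNT5A receptor, fell, at 11.7, 11.96 and 9.85 CPM in ΔNFATC4 and 18.8, 18.5, 21.5 and 23.2 CPM in mock (log2 fold change −0.87, SE 0.10, adjusted p = 4.77e-06). Of 34 semaphorins, plexins, netrins and slits, 7 rose (20.6%, beside 7.69% of all genes) and 5 fell (14.7%, beside 6.1%), with the netrin receptor UNC5B at 79.98, 87.3 and 83.3 CPM in ΔNFATC4 and 105, 127, 130.3 and 113 CPM in mock (log2 fold change −0.51, SE 0.07, adjusted p = 6.36e-05). Ephrins and their receptors fell in 3 of 16 tested members (18.8%, beside 6.1% of all genes) and rose in 0 by edgeR or DESeq2, in 2 by limma and in 2 at an unadjusted p under 0.05. EFNA3 was at 66.7, 55.4 and 60.7 CPM in ΔNFATC4 and 98.4, 90.001, 99.5 and 85.2 CPM in mock (log2 fold change −0.61, SE 0.07, adjusted p = 8.31e-06), and part of its locus is shared with a readthrough transcript of EFNA4. FGF18, a growth factor, was at 1.25, 1.76 and 0.995 CPM in ΔNFATC4 and 0.1303, 0.0427, 0.0465 and 0.357 CPM in mock (log2 fold change 3.07, SE 0.43, adjusted p = 4.01e-05). RGS4, which shortens G protein signals, was at 1.13, 0.9005 and 0.681 CPM in ΔNFATC4 and 0.0434, 0.171, 0 and 0.143 CPM in mock (log2 fold change 3.22, SE 0.48, adjusted p = 7.72e-05), and the phosphodiesterase PDE10A at 20.5, 24.1 and 22.5 CPM in ΔNFATC4 and 10.4, 14.3, 13.7 and 11.3 CPM in mock (log2 fold change 0.85, SE 0.10, adjusted p = 7.55e-06). UNC5B lost its call with the other 8 libraries in the fit.

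Among the abundant genes, 3 with large rises in CPM belonged to no list. SLC23A2, a vitamin C transporter, was at 479, 537 and 498 CPM in ΔNFATC4 and 336, 403, 405 and 345 CPM in mock (log2 fold change 0.44, SE 0.07, adjusted p = 0.000171). EPB41L1, a membrane skeleton protein, was at 804, 894 and 806 CPM in ΔNFATC4 and 635, 647, 697 and 707 CPM in mock (log2 fold change 0.31, SE 0.06, adjusted p = 0.00108). ALPL, the tissue-nonspecific alkaline phosphatase, was at 594, 621 and 555 CPM in ΔNFATC4 and 469.8, 416, 475 and 493 CPM in mock (log2 fold change 0.35, SE 0.06, adjusted p = 0.000648). PEG10, an imprinted gene that lies beside SGCE on the other strand, had one of the largest falls, at 869, 908 and 934 CPM in ΔNFATC4 and 1085, 1368, 1289.8 and 1353 CPM in mock (log2 fold change −0.50, SE 0.07, adjusted p = 5.23e-05). ALPL and PEG10 lost their call with the other 8 libraries in the fit.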
